A study of Mus musculus with 2 samples.

Results

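The genes described here carry the signal of insulin and of insulin-like growth factors (IGF) from the cell surface to cell growth. They are 31 genes picked by name from the 23235 genes of a deposited expression table, and each of the 31 names had 1 row. They comprise 3 receptors, 2 ligands, adaptor proteins, subunits of phosphoinositide 3-kinase (PI3K), a phosphatase, the kinases PDK1 and AKT, the TSC complex with RHEB, the mTOR complexes with their substrates, and the FOXO transcription factors.

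RNA was sequenced from 2 mouse acute promyelocytic leukaemias, APL#1 and APL#2, with 1 library each. The series describes them as clones with different frequencies of leukaemia-initiating cells. The labels do not tell which clone has more of these cells. Both carry PML-RAR, named in the labels as mCG-PML-RAR transgenic and as a PML-RAR KI genotype, on C57BL/6-Ly5.2. Both are labelled as untreated and 10 weeks old, although both titles end in VEH. The CD45.2+ leukaemic cells were grown in CD45.1+ C57BL/6-Ly5.1 recipients that had not been irradiated, after injection of 2000000 cells for APL#1 and 200000 for APL#2, and were purified from the spleen on immunomagnetic columns. Leukaemia, recipient, cell dose and library therefore cannot be told apart, and without replicates no test was made. In bulk RNA, fewer cells of a type and less RNA per cell cannot be told apart either.

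Insulin and IGF bind receptor tyrosine kinases, which phosphorylate IRS adaptors and so recruit PI3K. The lipids that PI3K makes bring PDK1 and AKT to the membrane, where AKT is activated. AKT restrains the TSC complex, which frees RHEB to switch on mTOR complex 1 (mTORC1) and protein synthesis, and it keeps FOXO factors out of the nucleus, where they would otherwise drive genes of quiescence and cell cycle arrest. Blood stem cells are known to depend on FOXO factors and on a restrained PI3K pathway.

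Levels are given as FPKM, fragments relative to transcript length and library size, so genes can be compared with each other. Summed over all genes, FPKM was only 34894 in APL#1 and 35240 in APL#2. Values near or under 1 should therefore not be read as near absence. Of the 31 genes, 9 averaged FPKM 1 or more over the libraries (called measured), 15 lay between 0.1 and 1, 3 lay under 0.1 but above 0, and 4 were listed at 0 in both libraries. From the lowest values of the table, a single fragment on 1 kb of transcript corresponded to 0.0192 FPKM for APL#1 and 0.0178 for APL#2. The 24 genes averaging 0.1 or more then stood on about 38 to 983 fragments per library, taking the longest coding transcript of each gene. Intervals below are exact 95% intervals of the plain ratio (APL#2 over APL#1) from these estimated fragments and cover counting error only. A wider error, the standard error implied by the test in the authors' deposited table, ran from 0.73 to 1.42 on the log2 scale over these 24 genes. Across all 4100 measured genes the median ratio was 0.835, so differences are also given relative to that median.

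Most genes of the pathway, 19 of the 24, lay within 1.5-fold of the all-gene median, while Igf1r, Eif4ebp1 and Foxo1 were higher in APL#2 and Pik3ca and Pik3r2 lower. Relative to the all-gene median, 2 of the 9 measured genes were at least 1.5-fold higher in APL#2, against 14.1% of all measured genes, and 0 were at least 1.5-fold lower, against 9.83%. With genes down to a mean FPKM of 0.1 the counts were 3 of 24 higher (all genes 16.3%) and 2 of 24 lower (13.1%). Igf1r (FPKM 0.585 in APL#1) entered the first set, and Foxo1 (0.0850) the second, only through its APL#2 value, and Foxo4 (0.793 in APL#2) the first only through APL#1, so nothing is read from these counts. At a limit of 2-fold on log2(FPKM + 1), without subtracting the all-gene median, 0 of 9 were higher (all genes 2.1%) and 0 of 9 lower (2.44%). With genes down to 0.1 the counts were 0 of 24 (0.941%) and 0 of 24 (1.03%). A gene under FPKM 1 in both libraries cannot pass this limit. All 15 genes averaging 0.1 to 1 lay under 1 in both, so the counts of 24 say nothing about them. Without division by the all-gene median, 2 of 9 were at least 1.5-fold higher (all genes 8.27%) and 3 of 9 lower (21.8%), the 3 being Akt1, Foxo4 and Rheb. In that setting 27.5% of all genes past 1.5-fold were higher in APL#2, against 59.0% with the division. The median log2(FPKM + 1) difference of the 9 was 0.04 relative to that of all measured genes, and -0.13 without subtracting it. In the authors' deposited table the lowest q among the 31 genes was 0.999997, and 1 of the 31 had p of at most 0.05. That gene was Irs1, which was listed at 0 in APL#2. Of all 23235 genes in that table, 225 had p of at most 0.05 and 11 had q of at most 0.05.

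**Figure D1:**
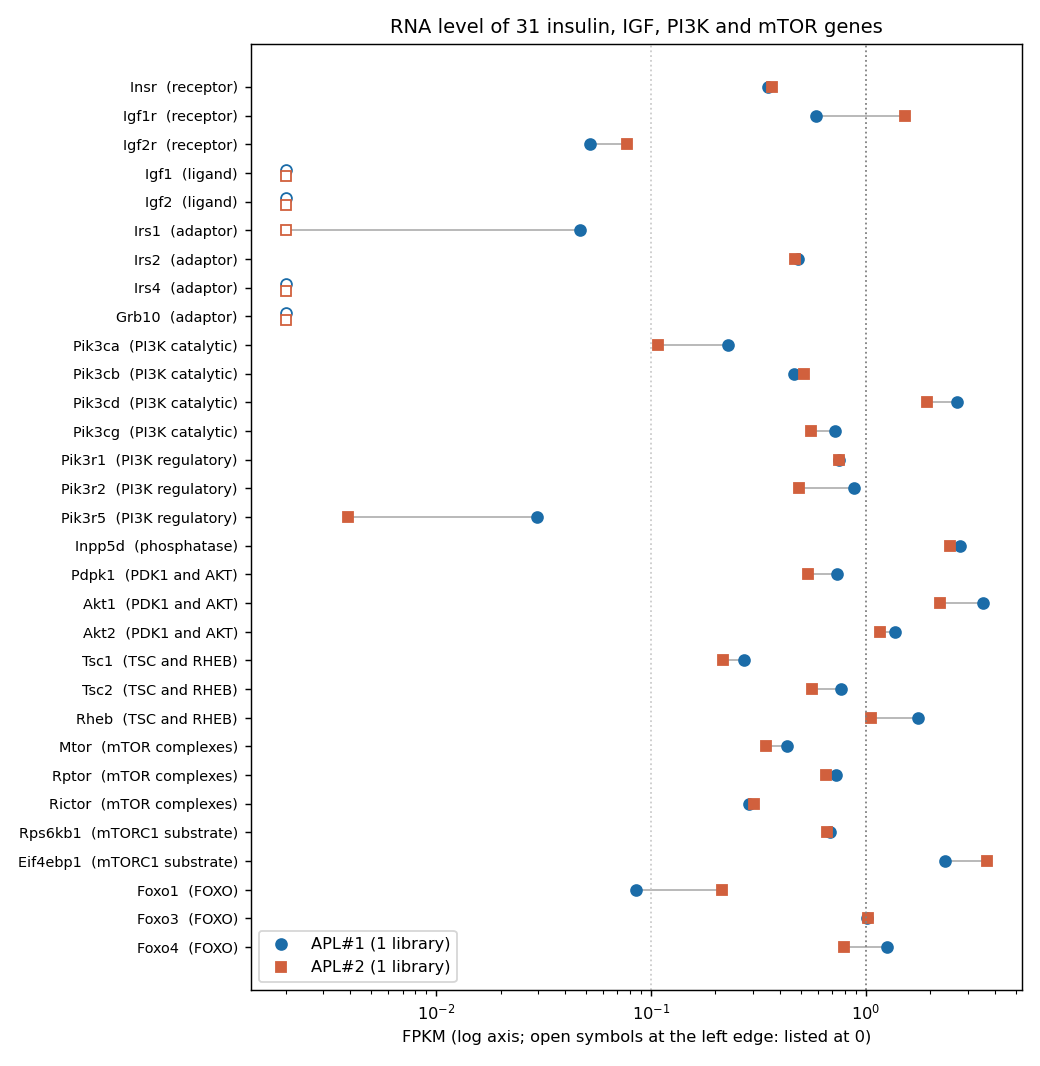
FPKM on a log axis of each of the 31 genes in APL#1 (circles) and APL#2 (squares), 1 library each, with the role in brackets; dotted lines mark FPKM 0.1 and 1, and open symbols at the left edge are genes listed at 0. Most pairs of symbols lie close together, and the widest gaps above FPKM 0.1 are those of Igf1r (0.585 and 1.53) and Pik3ca (0.229 and 0.108), with Foxo1 (0.0850 and 0.215) reaching down below 0.1.

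Upstream of the starts of Igf1r, Foxo1 and Akt1, RefSeq gives the following 250 bases (build GRCm38.p6, a newer build than the mm9 named for the data). Igf1r and Foxo1 are shown because their ratios were the widest among the 24 genes averaging FPKM 0.1 or more. Akt1 is shown with the FOXO element, which 1 of its 2 starts carries. Its level was lower in APL#2, but the plain ratios of Pik3ca, Pik3r2, Rheb and Foxo4 were lower still. Capitals mark the GC box GGGCGG or its reverse CCGCCC in Igf1r and Foxo1, and the FOXO-binding element TGTTTAC in Akt1, each searched on both strands.
Igf1r, chr7:67952007-67952256, plus strand: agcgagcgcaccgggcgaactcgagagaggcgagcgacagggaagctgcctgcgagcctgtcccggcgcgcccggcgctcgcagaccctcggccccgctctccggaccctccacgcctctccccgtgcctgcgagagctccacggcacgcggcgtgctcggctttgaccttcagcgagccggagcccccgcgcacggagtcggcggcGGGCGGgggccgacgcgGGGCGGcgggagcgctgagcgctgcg
Foxo1, chr3:52268087-52268336, plus strand: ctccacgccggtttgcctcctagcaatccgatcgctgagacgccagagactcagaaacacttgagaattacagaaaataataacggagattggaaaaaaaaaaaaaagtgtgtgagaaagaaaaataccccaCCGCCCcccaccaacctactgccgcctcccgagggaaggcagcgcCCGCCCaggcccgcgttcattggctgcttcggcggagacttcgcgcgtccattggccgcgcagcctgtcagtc
Akt1, chr12:112674885-112675134, minus strand: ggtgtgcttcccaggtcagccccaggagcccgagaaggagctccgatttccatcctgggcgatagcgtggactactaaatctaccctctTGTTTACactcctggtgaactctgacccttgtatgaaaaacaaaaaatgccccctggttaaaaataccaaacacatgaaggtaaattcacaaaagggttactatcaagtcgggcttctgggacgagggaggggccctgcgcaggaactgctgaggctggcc
The Igf1r window held 2 GC boxes within the last 43 bases before the start and had a GC content of 77.6%, and the Foxo1 window also held 2, at 56.0% GC. The Akt1 window had 1 FOXO element, beginning 161 bases before that start, which is the more distant of 2 annotated starts, whereas the window of the nearer start, not printed, held no FOXO element and 4 GC boxes. RefSeq promoters were at hand for 28 of the 31 genes, with 41 starts. A GC box lay in 23 of the 41 windows of 250 bases before a start (56.1%), against 32.7% of all 32851 promoter windows. The FOXO element lay in 2 of 41 (4.88%), those of Akt1 and Pik3cg, against 3.17%. These matches describe letters and not binding.

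Among the receptors, Igf1r was the gene with the widest difference. Igf1r, which encodes the receptor for both IGFs (mm9 chr7:75097143-75378553), had 0.585 FPKM in APL#1 and 1.53 in APL#2, on about 347 and 983 fragments. The ratio was 2.61 (counting interval 2.31 to 2.97), or 3.13 relative to the all-gene median. In the authors' deposited table its p was 0.0562 with q 0.999997, and the standard error their test implies was 0.73 on a log2 ratio of 1.39. Counting error alone is thus much smaller than the gap, whereas the authors' model of variability leaves it short of their threshold. Insr, the insulin receptor, stood at 0.350 and 0.366 FPKM, a ratio of 1.05 (0.849 to 1.30). In APL#1 the level of Igf1r was 1.67 times that of Insr, and in APL#2 4.18 times. Igf2r, which clears IGF2 and sorts lysosomal enzymes, was low at 0.0521 and 0.0778 FPKM, with about 24 and 39 fragments.

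The ligand genes Igf1 and Igf2 were listed at 0 in both libraries. Of 79 genes with symbols of cytosolic ribosomal proteins, 4 were also listed at 0 in APL#1 and 3 in APL#2. They were picked by the form of the symbol, which can also fit variants not used in every cell. A listed 0 may be a failed estimate, but this was not tested. Of the adaptors Irs1, Irs2, Irs4 and Grb10, which bind the active receptors, only Irs2 had signal in both leukaemias. Irs2 stood at 0.482 and 0.467 FPKM (ratio 0.969, interval 0.772 to 1.21). Irs1 stood at 0.0469 FPKM in APL#1, about 22 fragments, and was listed at 0 in APL#2. Its p in the authors' deposited table was 0.0491, with q 1. Irs4 and Grb10, an adaptor that dampens insulin signalling, were listed at 0 in both.

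The PI3K catalytic genes kept the same order, with the delta form far in front. Pik3cd, the form typical of white blood cells, stood at 2.67 and 1.94 FPKM (ratio 0.726, interval 0.647 to 0.813), which is 0.870 relative to the all-gene median. It made up 65.5% of the summed FPKM of the 4 catalytic genes in APL#1 and 62.1% in APL#2. Pik3cg, the gamma form that answers to G protein-coupled receptors, stood at 0.716 and 0.554 FPKM and made up 17.6% and 17.8%. The broadly expressed Pik3cb (beta) stood at 0.463 and 0.518 FPKM, and its share was 11.4% and 16.6%. Pik3ca, the alpha form best known as a cancer gene, was the lowest at 0.229 and 0.108 FPKM, a ratio of 0.470 (0.333 to 0.659) on about 106 and 54 fragments. Relative to the all-gene median it was 1.77-fold lower in APL#2, but within 1.5-fold with a pseudocount of 0.1 (log2 ratio -0.42 in place of -0.83).

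Of the regulatory subunits, Pik3r2 was lower in APL#2 and Pik3r1 was level. Pik3r2 stood at 0.882 and 0.487 FPKM, a ratio of 0.552 (0.420 to 0.728), 1.51-fold lower relative to the all-gene median and so just past the limit, which it no longer passed under 3 of 7 alternatives. Pik3r1, which stabilises and holds back the catalytic subunits, stood at 0.751 and 0.750 FPKM. The order within the family therefore differed between the libraries. Pik3r2 led in APL#1 with 53.1% of the summed FPKM against 45.2% for Pik3r1, and Pik3r1 led in APL#2 with 60.4% against 39.3%. The lead in APL#1 was narrow, on about 145 fragments for Pik3r2 and 278 for Pik3r1. For Pik3r2 the standard error implied by the authors' test was 1.06 on the log2 scale. Pik3r5, the partner of the gamma form, had 0.0294 and 0.00389 FPKM, about 7 fragments and 1. Inpp5d, which encodes the blood cell phosphatase SHIP1 that removes the lipid made by PI3K, stood at 2.75 and 2.48 FPKM (ratio 0.902, interval 0.811 to 1.00). Its level was close to that of Pik3cd in APL#1 (1.03 times) and 1.28 times that of Pik3cd in APL#2.

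**Figure D2:**
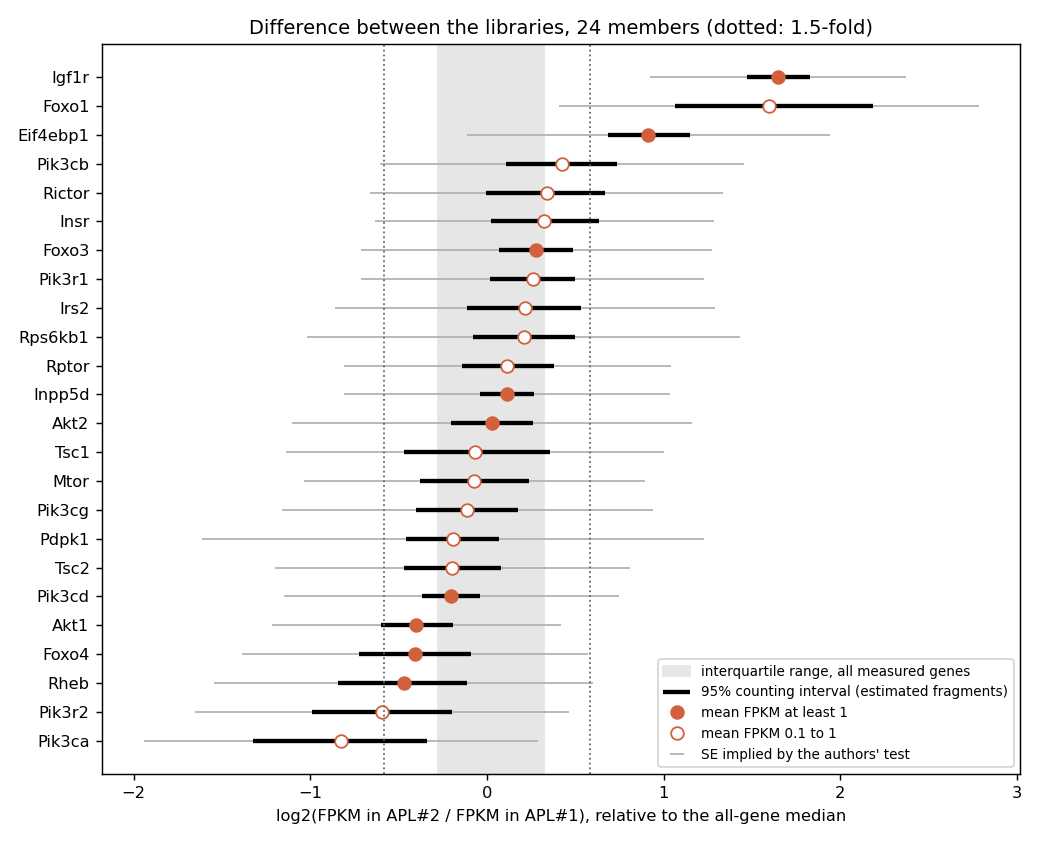
Log2 ratio of FPKM (APL#2 over APL#1) relative to the all-gene median for the 24 genes with mean FPKM of at least 0.1; thick bars are 95% counting intervals, thin bars the standard error implied by the authors' deposited test, the grey band the interquartile range of all measured genes and dotted lines 1.5-fold. Igf1r, Foxo1 and Eif4ebp1 lie to the right of the dotted line, Pik3ca and Pik3r2 to the left, and the other 19 between the lines.

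Akt1 stood above Akt2 in both leukaemias, and its level was lower in APL#2. Akt1 (mm9 chr12:113892032-113912487) had the highest level of the 31 genes in APL#1, at 3.50 FPKM, and stood at 2.22 in APL#2, a ratio of 0.633 (0.550 to 0.730). Relative to the all-gene median it was 1.32-fold lower, within the 1.5-fold limit. Akt2, the form most tied to insulin-stimulated glucose uptake, stood at 1.36 and 1.16 FPKM, in step with the all-gene median (1.02). Of the summed FPKM of this pair, Akt1 made up 72.0% in APL#1 and 65.7% in APL#2. Pdpk1, which encodes the AKT-activating kinase PDK1, stood at 0.739 and 0.539 FPKM (ratio 0.730, interval 0.608 to 0.875).

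The TSC genes and RHEB, the brake and the switch of mTORC1, were all lower in APL#2 by plain ratio and within 1.5-fold of the all-gene median. Tsc2, the subunit that turns RHEB off, stood at 0.769 and 0.560 FPKM (ratio 0.729, interval 0.602 to 0.882). Its partner Tsc1 stood at 0.271 and 0.216 FPKM (ratio 0.797, interval 0.604 to 1.07). Rheb stood at 1.75 and 1.06 FPKM (ratio 0.602, interval 0.466 to 0.772), which is 1.39-fold lower relative to the all-gene median. The mTOR kinase gene Mtor stood at 0.431 and 0.343 FPKM (ratio 0.795, interval 0.641 to 0.983). Rptor, which defines mTORC1, stood at 0.725 and 0.656 FPKM, and Rictor, which defines mTOR complex 2 (mTORC2), at 0.286 and 0.302. The level of Rptor was thus 2.54 times that of Rictor in APL#1 and 2.17 times in APL#2.

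The substrates of mTORC1 differed from each other. Eif4ebp1, which encodes a repressor of cap-dependent translation that mTORC1 switches off (mm9 chr8:28370799-28386128), had 2.34 FPKM in APL#1 and 3.68 in APL#2. That was the highest level of the 31 genes in APL#2. The ratio was 1.57 (1.34 to 1.85), or 1.89 relative to the all-gene median, and the authors' deposited p was 0.525. Rps6kb1, which encodes the S6 kinase that promotes translation, stood at 0.681 and 0.657 FPKM (ratio 0.965, interval 0.791 to 1.18).

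The FOXO genes shifted in makeup. Foxo4 was in front in APL#1, at 1.26 FPKM against 0.793 in APL#2 (ratio 0.629, interval 0.505 to 0.784). Foxo3, the form best known for keeping blood stem cells quiescent, stood at 1.02 and 1.03 FPKM (ratio 1.01, interval 0.877 to 1.17) and was in front in APL#2. Foxo4 made up 53.4% and 38.9% of the family's summed FPKM, and Foxo3 43.0% and 50.6%. Foxo1 (mm9 chr3:52072259-52154031) was the lowest, at 0.0850 and 0.215 FPKM on about 38 and 105 fragments, a ratio of 2.52 (1.75 to 3.81). Its relative log2 ratio was 1.60, and 1.01 with a pseudocount of 0.1. Its authors' deposited p was 0.261.

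Foxo1 is also expressed in lymphocytes, and B and T cell markers, each under FPKM 0.2, were higher in APL#2. Summed FPKM of 5 B cell markers was 0.196 in APL#1 and 0.404 in APL#2, of 6 T cell markers 0.0526 and 0.261, and of 5 NK cell markers 0.0382 and 0.0102. Their part in the Foxo1 values was not tested. The cells had been selected as CD45.2+ from CD45.1+ recipients. All 25 markers with a row in the 5 lists for B, T and NK cells, red cell precursors and dendritic cells lay under FPKM 0.2 in both libraries. The 6 promyelocyte markers were all at mean FPKM of at least 1 and went both ways, with Mpo (661.8 and 157.3) and Elane (32.4 and 5.01) lower in APL#2, Ms4a3 (7.85 and 15.9) higher, and Prtn3 (3.45 and 2.45), Ctsg (7.89 and 8.99) and Cebpe within 1.5-fold by plain ratio. Some markers of other lists were above FPKM 1 in both libraries: Cpa3 (41.3 and 7.09), Mcpt8 (1.02 and 8.04) and Gata2 (2.998 and 1.83) of basophils and mast cells, Itga2b (2.34 and 3.95) of megakaryocytes, and Pecam1 (3.62 and 1.62) and Pdgfrb (1.30 and 1.11) of stroma and endothelium. Fcer1a and Prss34 of basophils and mast cells, Pf4, Gp9 and Ppbp of megakaryocytes, and Kdr and Pdgfra of stroma and endothelium were listed at 0 in both. Their part in the values of the 31 genes was not tested. Of 7 macrophage genes, 6 were under FPKM 1 in both libraries, among them Emr1 at 0.0230 and 0.537, while Vcam1 stood at 3.94 and 7.47.

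**Figure D3:**
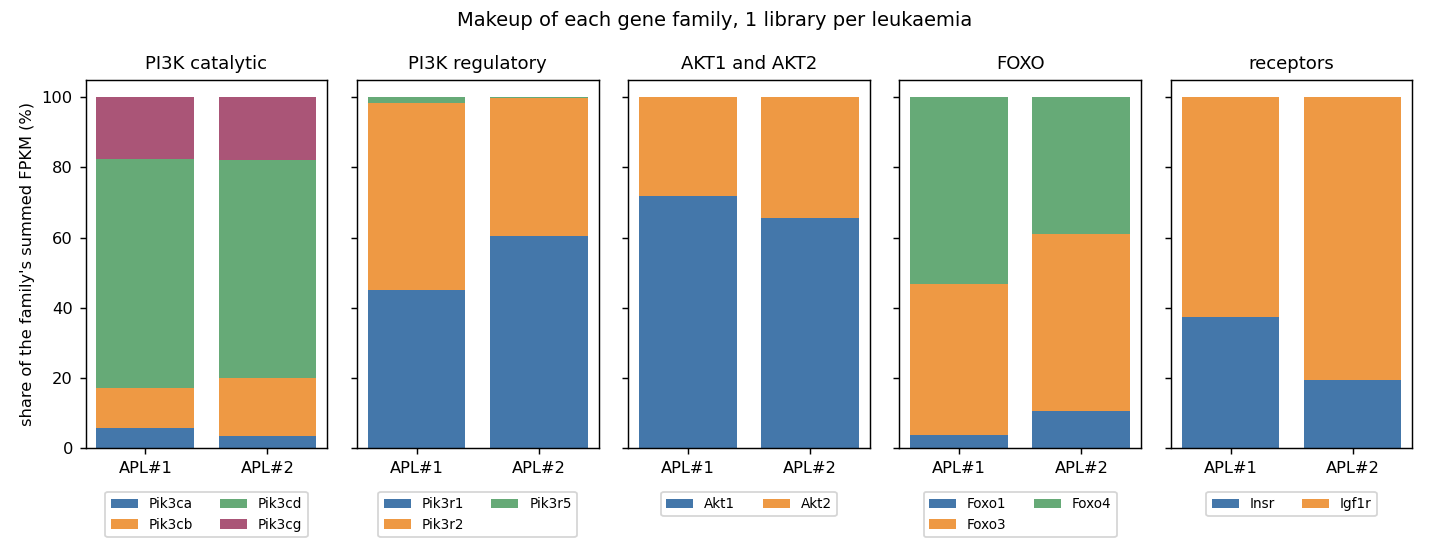
Stacked bars of each gene's share (%) of its family's summed FPKM in APL#1 and APL#2, 1 library each, for the PI3K catalytic and regulatory genes, FOXO genes, receptors and Akt1 with Akt2. Igf1r takes 62.6% of the receptor bar in APL#1 and 80.7% in APL#2, and the PI3K catalytic bars are alike.

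The rest of the pathway was described with 6 lists of partners, regulators and translation factors. Calls are relative to the all-gene median, beside the same background of 14.1% higher and 9.83% lower at 1.5-fold. Of 6 measured upstream adaptors and brakes, 1 was higher, Dok3, a docking protein of myeloid cells and B cells (4.27 and 5.90 FPKM). The list of other PI3K and phosphatase genes had 3 measured members, of which 1 was higher, the PI3K inhibitor gene Pik3ip1 (1.56 and 1.98 FPKM). None of 6 measured AKT partners and substrates and none of 3 measured mTOR complex partners passed in either direction. Among 11 measured genes of amino acid and energy input to mTORC1, 1 was higher: Slc3a2, the heavy chain of amino acid transporters (1.90 and 3.13 FPKM). Of 14 measured translation genes downstream of mTORC1, 3 were higher and 1 lower. Rps6, the ribosomal protein that S6 kinase phosphorylates, stood at 20.4 and 30.4 FPKM and has processed copies in the genome that could share its reads. Pdcd4, an inhibitor of translation initiation, stood at 1.36 and 2.34 FPKM, and Rps6kb2, the second S6 kinase gene, at 1.39 and 2.19. Rps6ka3, a kinase of the ERK pathway that also acts on ribosomal protein S6, was lower, at 1.77 and 0.905 FPKM. It was thus measured only through APL#1. Relative to all measured genes, the median log2(FPKM + 1) differences of the 6 lists, in the order given, were 0.19, 0.08, 0.09, -0.25, 0.01 and 0.08. Without subtracting the all-gene median (-0.17), the PI3K, AKT, amino acid and translation medians lay below 0.

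None of the 31 genes lay on chromosome 19 or in the stretches of chromosomes 2 and 6 whose genes were shifted together between these libraries. Slc3a2, Pdcd4 and Rps6kb2, in contrast, are chromosome 19 genes, so 3 of the 4 higher genes in the amino acid and translation lists lay in a shifted region. Over all genes, leaving out the shifted regions and recomputing the median took the measured genes from 4100 to 3741. Those at least 1.5-fold higher went from 579 to 439. The regions were found in these same data, so nothing is read from the 3 of 4.

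Known FOXO target genes leaned toward APL#2 in the measured range, but the list was chosen with earlier results of these data known. Nothing is therefore read from the lean. Of 12 measured targets, 4 were at least 1.5-fold higher relative to the all-gene median (background 14.1%) and 0 lower (9.83%). The list median was 0.29 above that of all genes on the log2(FPKM + 1) scale. Klf2, a zinc finger factor of quiescence and cell homing, stood at 5.07 and 9.73 FPKM (ratio 1.92, interval 1.72 to 2.14). Its relative Klf6 stood at 4.81 and 8.38 FPKM (ratio 1.74, interval 1.62 to 1.88). Cdkn1a, the cell cycle inhibitor p21, stood at 1.41 and 2.07 FPKM (ratio 1.46, interval 1.19 to 1.80). The fourth was Pik3ip1, given above, and all of these genes also answer to other factors. By plain ratio, Cdkn1a and Pik3ip1 (1.27) lay under 1.5-fold. With targets down to a mean FPKM of 0.1 the counts were 4 of 23 higher (background 16.3%) and 2 of 23 lower (13.1%), and the list median was 0.05. The FOXO element lay in 3 of 30 promoter windows of the targets (10.0%), those of Bcl2l11, Txnip and Bbc3, and in none of those of Klf2, Klf6, Cdkn1a and Pik3ip1.

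Metabolic genes that AKT and mTORC1 are known to drive stood level as a list, with a median of 0.00 over 14 measured genes. Of these 14, 1 was at least 1.5-fold higher and 1 lower. Hk2, the hexokinase that traps glucose in the cell, stood at 0.870 and 1.70 FPKM, so that it was measured only through APL#2, and lies in the chromosome 6 stretch. Phgdh, the first enzyme of serine synthesis, stood at 2.79 and 1.34 FPKM, 1.73-fold lower relative to the all-gene median.

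In these lists, 2 genes averaging FPKM 0.1 or more that lay at least 3-fold from the all-gene median, a limit chosen after the values were seen, were Asns, which makes asparagine (1.49 and 0.404 FPKM, 3.09-fold lower relative to the median), and Socs1, a brake on cytokine and insulin receptors (0.396 and 0.0796 FPKM, 4.15-fold lower). Asns stood on about 156 and 46 fragments and Socs1 on about 60 and 13. Their p in the authors' deposited table was 0.0885 and 0.0973. Socs1 reached a mean FPKM of 0.1 only through its APL#1 value. The share of all genes past 3-fold was not counted, so nothing is read from there being 2.

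**Figure D4:**
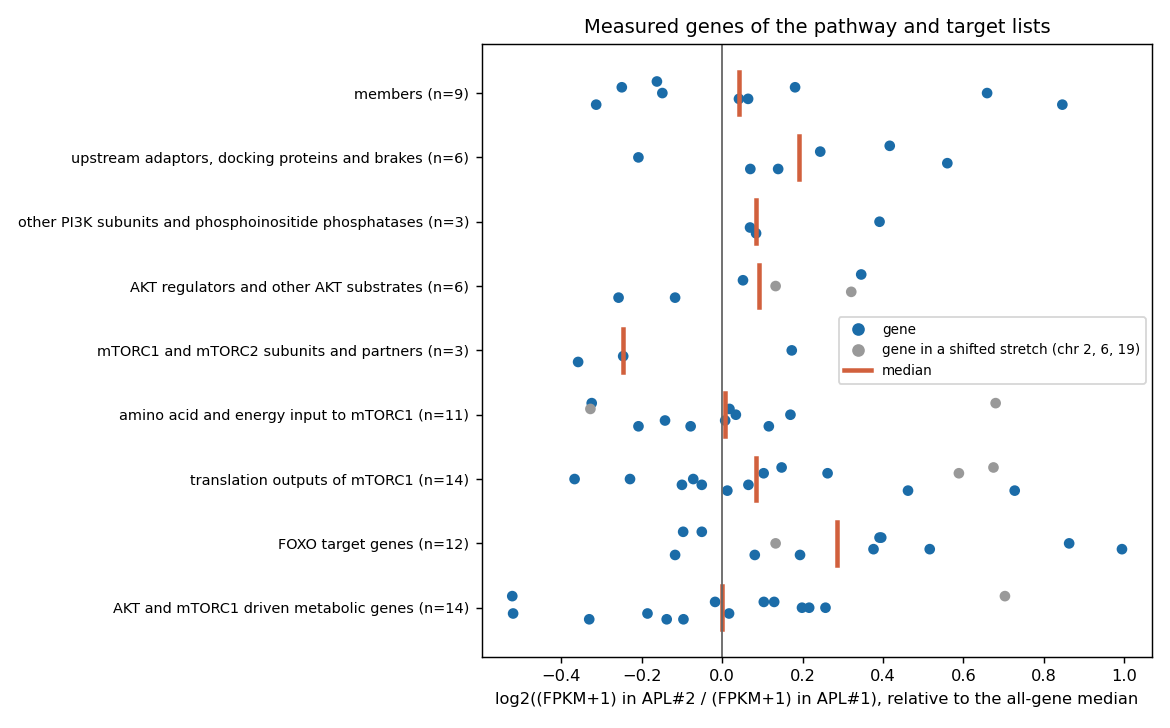
Log2(FPKM + 1) difference (APL#2 minus APL#1), relative to the all-gene median, of each measured gene in the 31-gene set and the pathway and target lists; bars are list medians and grey points genes in the shifted stretches. Most points lie within 0.4 of 0; the FOXO targets have the highest median (0.29) and the list of 3 mTOR complex partners the lowest (-0.25).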

How the data were processed

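RNA of 2 libraries, 1 per leukaemia, was analysed from 1 gene table. Per the submitters' processing notes, the mm9 build and the tools Cufflinks, Cuffdiff and TopHat2 (2.0.10) were used; no label states their roles, the annotation, the read layout, strand or filters. The value columns deposited by the authors were read as FPKM from the Cuffdiff layout of the table. The authors' test statistic, a score per gene, and their p-value and q-value come per the file headers.

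The members and lists were chosen with earlier results of these data known. Groups followed the sample descriptions. Ratios are plain FPKM ratios; log2 differences used a pseudocount of 1. Genes with mean FPKM of at least 1 (4100 of 23235) set the all-gene median and the background. Counts and list medians under another filter used the genes passing that filter instead. At a mean FPKM of at least 0.1 these were 10204 genes, with a median ratio of 0.853. All members with a mean FPKM of at least 0.1 are described, and from each list the genes past 1.5-fold with mean FPKM of at least 1, at most 3 per direction. Fragments were estimated from 305 low genes whose ratio lay near 1.08 and from the GENCODE M21 length of 21 genes with 1 transcript, implying scaling totals of about 52000000 and 56300000. Counting intervals are exact (Clopper-Pearson). Of the list symbols, 4 were matched through older names and 4 had no row; 1 listed item is not reported here. Call rules were run on simulated data that held counting error only. That check says nothing about false calls under the wider error implied by the authors' test. Python 3.11.15, pandas 2.3.3, NumPy 2.4.6 and SciPy 1.17.1 were used. The alternatives were another pseudocount, 3 other filters on low values, no centring, upper quartile scaling, and leaving out the shifted stretches, which earlier work on these same data had found.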

Additional observations from a re-analysis of the deposited data

How the results depend on the processing

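Igf1r, Eif4ebp1, Foxo1, Pik3ca and Pik3r2, the members that lay past 1.5-fold, kept their direction under each of 7 alternatives. None of the 24 members averaging FPKM 0.1 or more moved by more than the standard error implied by the authors' deposited test. For a single gene, every alternative except the pseudocount only adds a constant, smaller than the lowest of these errors (0.73 on the log2 scale). Under those alternatives neither outcome could have differed. Not all stayed past 1.5-fold: on the log2 scale, Pik3r2 (-0.60) stood at -0.49 with a pseudocount of 0.1, -0.57 with upper quartile scaling and -0.57 without the shifted stretches, and Pik3ca (-0.83) at -0.42 with a pseudocount of 0.1. Foxo1 (1.60) stood at 1.01 with that pseudocount. The log2 ratio of Igf1r relative to all genes ran from 1.39 (not centred) to 1.67. Members at least 1.5-fold higher, 2 of 9, numbered 1 of 4 at a mean FPKM of at least 2 (all genes 17.0%) and 4 of 27 with no filter (24.7%). Members at least 1.5-fold lower, 0 of 9, numbered 2 of 24 at a mean of at least 0.1 (13.1%), 4 of 27 with no filter (19.3%) and 3 of 9 not centred (21.8%). With a pseudocount of 0.1, 1 of 9 members was at least 2-fold higher. It was Igf1r, which was measured only through its APL#2 value. The share of all genes past 2-fold was not counted in that setting. Not centred, the median of the measured members was -0.13. Those of the lists were then 0.0200 (upstream adaptors), -0.0872 (PI3K), -0.0792 (AKT), -0.42 (mTOR complexes), -0.16 (amino acid input), -0.0873 (translation), 0.11 (FOXO targets) and -0.17 (metabolic genes). At a mean of at least 0.1 the medians were 0.0826 (upstream), -0.0318 (AKT), 0.00222 (mTOR complexes) and 0.0511 (FOXO targets). With no filter they were 0.0471 (upstream), -0.0493 (AKT), -0.0315 (mTOR complexes), -0.12 (amino acid input), -0.0203 (translation) and 0.0210 (FOXO targets). Without the shifted stretches they were -0.0163 (AKT) and 0.39 (FOXO targets). Filters change which genes enter, and centring subtracts 1 constant. With a pseudocount of 0.1, Pik3r1 and Pik3r5 made up 55.2% and 6.74% of the regulatory subunits in APL#2. No paired analysis was possible because each leukaemia has 1 library. Low fragment numbers limit Pik3r5, Igf2r and Irs1.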
